A study of Saccharomyces cerevisiae BY4741 with 2 samples.

Results

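The 5 rows of a budding yeast RNA-seq count table described here, of 7134 in all, are the long noncoding RNA ICR1 and its target FLO11 (YIR019C), the long noncoding RNA IRT1 and its target IME1 (YJR094C), and SER3 (YER081W), the target of the noncoding RNA SRG1. They were picked by name from knowledge of these loci, and all 5 were found in the table. Strand-specific total RNA had been sequenced from 2 haploid Saccharomyces cerevisiae strains, both of mating type a, grown at 30 °C in rich medium with 2% glucose to mid-log phase, with 2 libraries of each. The labels give the wild type as his3Δ1 leu2Δ0 met15Δ0 ura3Δ0. They give the other strain as dbp2::KanMx, with ura3Δ0, leu2Δ0, his3Δ0, TRP1, met- and lysΔ. Loss of DBP2 and these marker differences cannot be told apart, and no label says that replicate libraries were grown as separate cultures, so the p-values cover the library-to-library spread alone, which could be technical.

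At each of the 3 loci a noncoding RNA is made from the same strand as a protein-coding gene, across that gene's promoter, and its transcription is known to keep the gene off by altering chromatin or blocking activators there. ICR1 runs across the promoter of FLO11, a cell-surface flocculin needed for adhesion and filamentous growth, and PWR1, made from the opposite strand inside ICR1, is known to counter it. IRT1 runs across the promoter of IME1, the master activator of meiosis. In haploid cells the zinc-finger protein Rme1 switches IRT1 on, and the histone methyltransferase Set2 and the Set3 deacetylase complex then keep the IME1 promoter closed. SRG1 runs across the promoter of SER3, a phosphoglycerate dehydrogenase of serine synthesis, and is switched on by the activator Cha4 when serine is present, with nucleosomes put back behind the polymerase by Spt6 and the FACT complex. Dbp2, missing in the second strain, is an RNA helicase that works on RNA during transcription and is known to act on noncoding transcripts.

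In the R64 annotation, FLO11 lies on the minus strand of chromosome IX from 389572 to 393675, and ICR1 lies upstream of it from 393884 to 397082. ICR1 starts 3407 bases upstream of the first coding base of FLO11 and ends with 208 bases between them. IME1 lies on the minus strand of chromosome X from 604569 to 605651 and IRT1 from 605936 to 607424, so that IRT1 starts 1773 bases upstream of the first coding base and leaves 284 bases between. SER3 lies on the plus strand of chromosome V from 322686 to 324095 and SRG1 from 322212 to 322762, which makes SRG1 the one noncoding RNA of the 3 that runs into its target, with 77 shared bases at the 5′ end of the SER3 coding sequence. The other 2 end before the coding sequence.

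**Figure D1:**
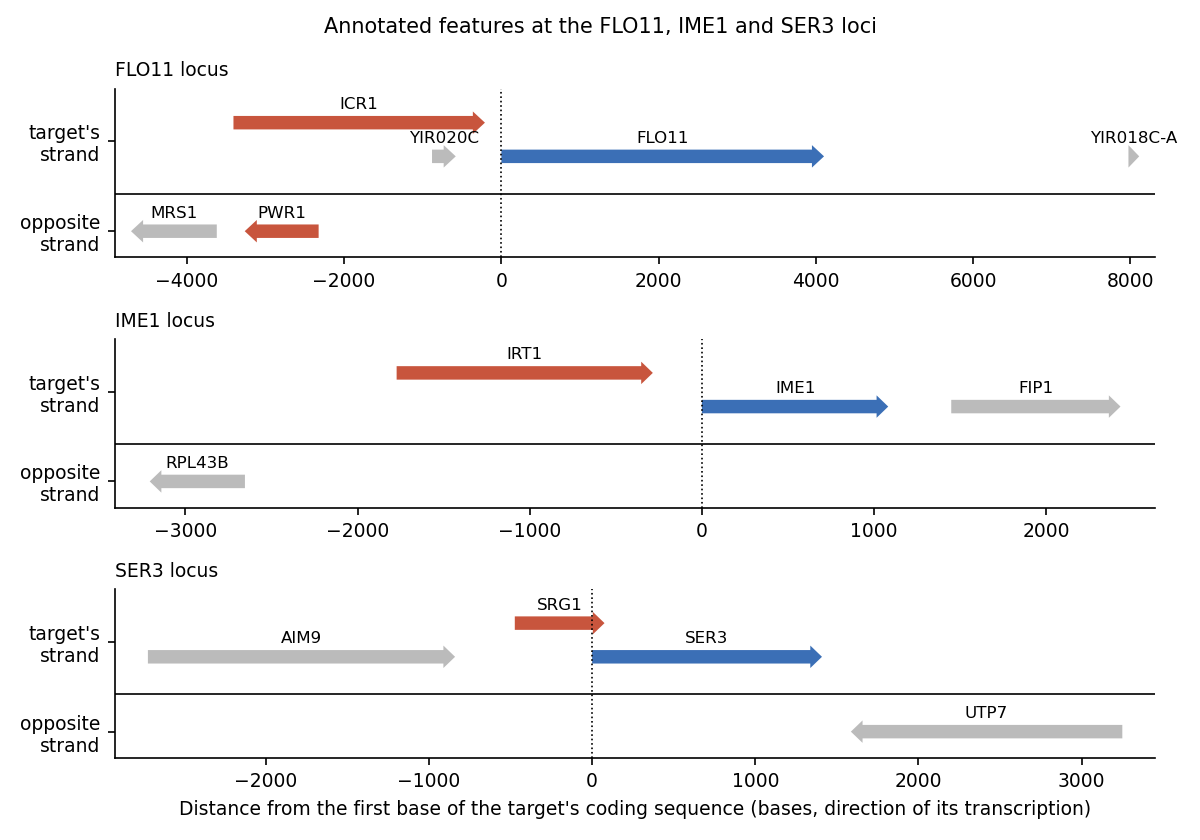
Maps of the FLO11, IME1 and SER3 loci to scale, with the distance in bases from the first coding base of the target on the horizontal axis and arrows in the direction of transcription (red, noncoding RNAs; blue, targets; grey, nearest or nested neighbours). ICR1 and IRT1 end 208 and 284 bases before the coding sequence, whereas SRG1 shares 77 bases with SER3.

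The start windows of FLO11, IRT1, SRG1 and SER3 are shown, taken from the R64 genome of RefSeq. Each holds 250 bases before and 50 after the annotated start and is printed along the strand of the gene. Capitals mark every match to TATAAA, the only form of the TATA box searched for, and to CCTCAA, the core of the Rme1 site.
FLO11, chrIX:393626-393925, minus strand: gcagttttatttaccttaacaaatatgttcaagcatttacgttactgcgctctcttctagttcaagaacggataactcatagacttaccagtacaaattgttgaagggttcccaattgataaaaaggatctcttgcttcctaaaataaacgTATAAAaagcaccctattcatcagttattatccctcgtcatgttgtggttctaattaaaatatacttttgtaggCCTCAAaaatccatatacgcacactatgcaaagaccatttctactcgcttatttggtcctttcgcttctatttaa
IRT1, chrX:607375-607674, minus strand: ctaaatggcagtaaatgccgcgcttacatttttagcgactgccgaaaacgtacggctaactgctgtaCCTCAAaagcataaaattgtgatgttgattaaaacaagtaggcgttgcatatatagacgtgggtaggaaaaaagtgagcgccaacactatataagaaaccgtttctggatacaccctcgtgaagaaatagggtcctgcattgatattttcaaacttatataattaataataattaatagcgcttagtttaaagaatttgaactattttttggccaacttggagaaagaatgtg
SRG1, chrV:321962-322261, plus strand: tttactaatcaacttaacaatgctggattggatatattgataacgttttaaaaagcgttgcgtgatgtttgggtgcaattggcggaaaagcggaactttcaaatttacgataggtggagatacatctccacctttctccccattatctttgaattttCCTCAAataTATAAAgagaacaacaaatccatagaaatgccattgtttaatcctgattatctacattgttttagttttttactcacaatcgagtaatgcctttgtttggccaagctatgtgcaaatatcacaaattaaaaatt
SER3, chrV:322436-322735, plus strand: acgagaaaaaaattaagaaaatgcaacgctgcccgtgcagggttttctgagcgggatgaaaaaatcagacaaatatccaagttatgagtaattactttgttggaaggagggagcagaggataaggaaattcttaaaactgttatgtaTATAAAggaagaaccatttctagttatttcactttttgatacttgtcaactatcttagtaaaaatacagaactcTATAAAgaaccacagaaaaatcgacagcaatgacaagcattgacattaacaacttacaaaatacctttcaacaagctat
The IRT1 window held CCTCAA 183 bases upstream of the RNA's start and no TATAAA. Whether it holds another form of the TATA box was not searched. This Rme1 core occurred in 13.3% of 5988 windows of protein-coding genes, and it was also found 25 bases upstream of the FLO11 coding start and 93 bases upstream of the SRG1 start. TATAAA occurred, on either strand, in 45.2% of the protein-coding windows. It stood 84 bases upstream of the SRG1 start, 99 bases upstream of FLO11, 158 bases upstream of IME1 (window not shown), and 103 and 29 bases upstream of SER3, both of the last lying inside the transcribed part of SRG1. In the 6 windows searched, which also took in ICR1 and IME1, no other motif searched had a match on either strand. These were the Ume6 core GGCGGC, present in 5.14% of the protein-coding windows, the Ste12 element TGAAACA, in 7.52% of them, the Tec1 element CATTCC, in 10.9%, and the Gcn4 element TGACTC, in 8%. The ICR1 window had no match to any of the 6 motifs. Promoter sequence outside these windows was not searched.

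Library totals were 10860000 and 12586037 counts in wild type 1 and 2 and 36028173 and 24961576 in deletion 2 and 3. DBP2 counts were 7320 and 9662 in the wild-type libraries against 66 and 237 where the gene was deleted. Of 6 genes specific to mating type a, none rose and 1 fell, the protease gene BAR1 (4.17-fold), while the receptor gene STE2 stood at 273 and 167 CPM in wild type against 238 and 210 CPM. Of 4 alpha-specific genes 2 were tested, and the agglutinin gene SAG1 rose 2.96-fold. The pheromone gene MF(ALPHA)1 had 0, 0, 1 and 1 count. Where 2 features overlap on a strand, reads appear to have been left out of the smaller one: of 69 features lying wholly inside another on the same strand, 68 had 0 counts in all 4 libraries. One of them is YIR020C, a small reading frame inside ICR1, which did have counts. Some of the 68 lie inside features that had 0 counts themselves, such as RDN37-1, and show nothing on this point. Reads from the 77 bases common to SRG1 and SER3 may likewise be missing from both values. Of 6124 features tested, 41.9% were called between the strains at an adjusted p below 0.05 (edgeR quasi-likelihood test), 21.2% as higher and 20.7% as lower in the deletion strain. Beside this background, IRT1 was called higher in the deletion strain, and ICR1, IME1 and SER3 did not pass. FLO11 was also called higher, but it entered the test through its deletion counts alone, and all 10 such rows with no wild-type count were called, so its call is not read against the background.

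Per kilobase, the levels of the 3 loci lay far apart. In wild type, SRG1 stood at 71.6 and 64.8 CPM per kilobase (counts scaled by library total and TMM factor, per annotated length), SER3 at 32.9 and 36.3, IRT1 at 8.78 and 6.95, ICR1 at 1.64 and 2.78 and IME1 at 0.906 and 0.0846, with no overlap between neighbours in this order, and FLO11 and PWR1 had no counts. The noncoding RNA thus exceeded its target at all 3 loci in both wild-type libraries. In the deletion libraries SRG1 (42.6 and 62.2) and SER3 (43.4 and 45.5) overlapped. IRT1 (25.9 and 11.7), ICR1 (2.72 and 3.54) and IME1 (1.11 and 0.337) kept their order, and PWR1 (0.261 and 0.494) overlapped IME1 and lay above FLO11 (0.120 and 0.194).

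**Figure D2:**
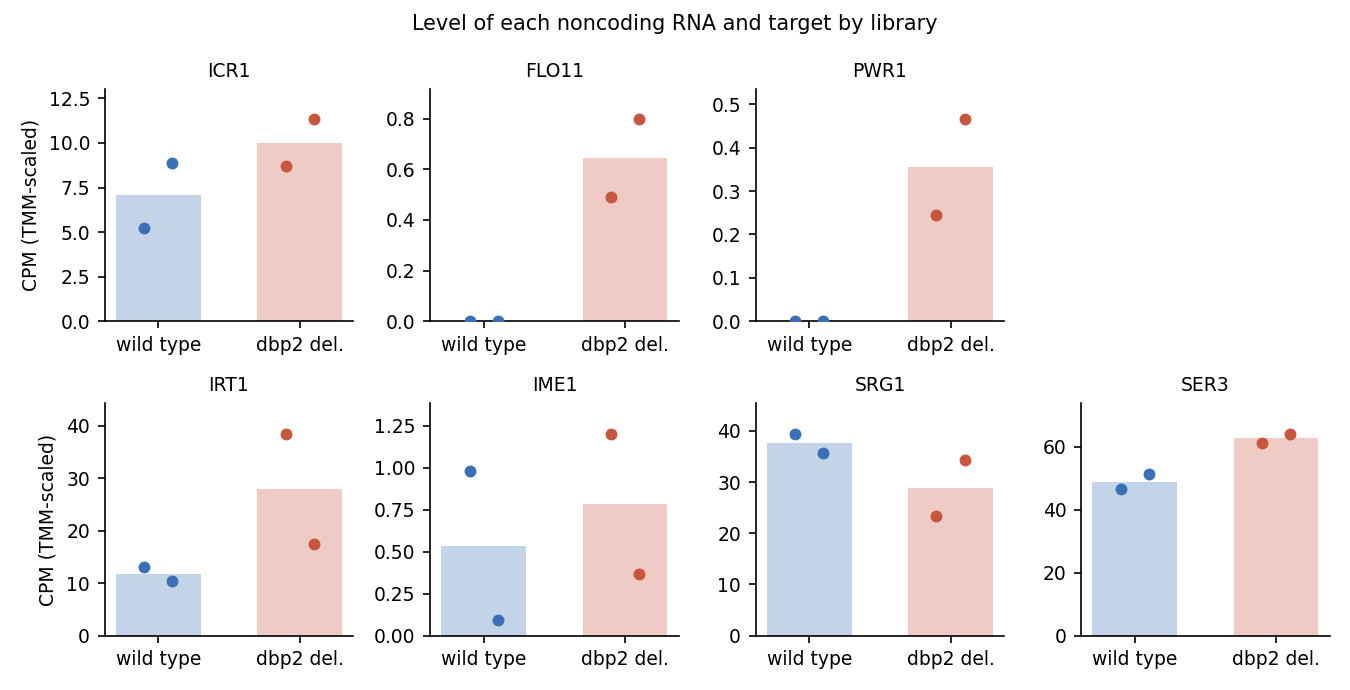
CPM (TMM-scaled) of each noncoding RNA and target in each library; points are libraries, bars strain means of 2 libraries, and each panel has its own axis from 0. FLO11 and PWR1 are at 0 in both wild-type libraries, the IRT1 strains are apart although deletion 2 (38.5) lies well above deletion 3 (17.4), and the IME1 points of the strains overlap.

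FLO11, with no reads in wild type, gave reads in both deletion libraries. Counts of FLO11 were 0 and 0 in the wild-type libraries against 20 and 24 in deletion 2 and 3, or 0.491 and 0.797 CPM. Both deletion libraries were above both wild-type libraries, which also had fewer reads in all. At the pooled deletion level of 0.621 CPM the wild-type libraries together would have held 12.5 counts. The edgeR quasi-likelihood test gave FLO11 an adjusted p of 0.0178. That value belongs to the fitted fold change, not to the limits that follow, which were not tested. Against a limit of 3 counts over both wild-type libraries (0.149 CPM) FLO11 was at least 4.16-fold higher in the deletion strain. With deletion 2 alone it was at least 3.29-fold higher, and with deletion 3 alone 5.34-fold. Such limits cover counting error in the wild type only and take the deletion counts as exact. The 95% counting interval of FLO11 in deletion 2 (exact Poisson) was 0.300 to 0.758 CPM. The row entered the test through its deletion counts, and of 614 rows with no count in wild type the 10 that entered were all called. With wild type 1 left out it no longer passed (adjusted p = 0.0701), nor with wild type 2 left out (adjusted p = 0.0931), and without deletion 3 the row was not tested. In the authors' deposited table FLO11 also passed, with an adjusted p of 2.84e-04. FLO11 is rich in repeats and has relatives among the FLO genes, so reads that fit several places could affect its count.

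ICR1, the repressing RNA, was present in both strains. Its counts were 48 and 97 in the wild-type libraries against 355 and 341, which is 5.23 and 8.88 against 8.71 and 11.3 CPM. The strains overlapped, since wild type 2 lay above deletion 2. The log2 fold change was 0.50 (SE 0.33, 95% interval -0.26 to 1.25, adjusted p = 0.257), beside a median of 0.49 over the 612 features of its abundance class. With abundance-dependent offsets it was 0.0032. PWR1, the antisense partner within ICR1 (chromosome IX, 395999 to 396939), was listed at 0 and 0 counts in the wild-type libraries against 10 and 14. It was too low to enter the test. Against the same limit of 3 wild-type counts (0.149 CPM), with deletion counts taken as exact, PWR1 was at least 2.27-fold higher. With deletion 2 alone this was 1.64-fold. The 95% counting interval of deletion 2 (exact Poisson) ran from 0.118 to 0.451 CPM and so reached below that limit. In the authors' deposited edgeR table PWR1 had an adjusted p of 0.0140. With no filter on low counts its adjusted p was 0.0799.

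IRT1 rose in the deletion strain, and its target IME1 did not pass the test in either direction. Counts of IRT1 were 120 and 113 in the wild-type libraries against 1569 and 525, or 13.1 and 10.3 against 38.5 and 17.4 CPM. Both deletion libraries lay above both wild-type libraries, but they differed from each other 2.21-fold, and the lower of them was 1.33-fold above the higher wild type. The log2 fold change was 1.26 (SE 0.37, adjusted p = 0.0217; 2.40-fold), against a median of 0.23 and 27.4% called higher among the 613 features of its abundance class. The call was lost without deletion 2, where the log2 fold change was 0.58 (adjusted p = 0.297). It was also lost without wild type 2 (1.14, adjusted p = 0.0917) and with abundance-dependent offsets (0.95, adjusted p = 0.0627). In the authors' deposited table the log2 fold change was 1.28 with an adjusted p of 0.00232.

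IME1 was barely detected in any library. Its counts were 9 and 1 in the wild-type libraries against 49 and 11, or 0.981, 0.0916, 1.20 and 0.365 CPM. The strains overlapped: the wild-type libraries differed 10.7-fold and the deletion libraries 3.29-fold. A single count in wild type 2 has a 95% counting interval from 0.00232 to 0.510 CPM (exact Poisson), while wild type 1 spans 0.449 to 1.86. The log2 fold change of 0.65 (SE 0.92, 95% interval -1.42 to 2.73, adjusted p = 0.596) was negative without wild type 2 (-0.25) or deletion 2 (-0.48), so at this depth no direction could be given. Deletion 2, the library with the highest IRT1 level, also had the highest IME1 level. RME1, the activator of IRT1, showed no difference that passed the test, at 93.1 and 128 CPM in wild type against 106 and 132 CPM (log2 fold change 0.10, SE 0.22, adjusted p = 0.745).

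At SER3 neither RNA passed the test. Counts of SER3 were 426 and 559 in the wild-type libraries against 2495 and 1932, or 46.4 and 51.2 against 61.2 and 64.2 CPM. The strains did not overlap, and the lower deletion library was 1.20-fold above the higher wild type. The log2 fold change was 0.36 (SE 0.19, 95% interval -0.061 to 0.78, adjusted p = 0.149). SER3 passed when libraries were scaled by their totals alone (0.81, adjusted p = 0.00675), a scaling that moved the median of all features from 0.01 to 0.46. Counts of SRG1 were 362 and 390 in the wild-type libraries against 956 and 1032, or 39.5 and 35.7 against 23.5 and 34.3 CPM. Both deletion libraries were below both wild-type libraries, deletion 3 only just. The log2 fold change was -0.38 (SE 0.24, 95% interval -0.92 to 0.16, adjusted p = 0.224), and 0.08 with library totals alone.

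Counts of target and noncoding RNA within a library can be compared without any scaling. Per 100 counts of SRG1 there were 118 and 143 counts of SER3 in wild type against 261 and 187. The log2 ratio of SER3 to SRG1 was thus 0.38 ± 0.20 in wild type and 1.14 ± 0.34 in the deletion strain (SD, n = 2), a difference of 0.77 that was larger than the spread within either strain (exact two-sided permutation test p = 0.333, the smallest that 2 against 2 libraries can give). Per 100 counts of ICR1 there were 0 and 0 counts of FLO11 in wild type against 5.63 and 7.04, again without overlap. With 0.5 added to each count the log2 ratio of FLO11 to ICR1 differed by 3.15, a value that depends on the count added because wild type has none (2.19 with 1 added). Per 100 counts of IRT1 there were 7.50 and 0.885 counts of IME1 in wild type against 3.12 and 2.10 in the deletion libraries, which lay between the wild-type values. Both deletion ratios thus lay above both wild-type ratios for SER3 and for FLO11, and not for IME1. For FLO11 this follows from its having no counts in wild type and some in both deletion libraries. For SER3 the exact test cannot give a smaller p with 2 against 2 libraries, so it cannot decide whether the separation exceeds library spread. Ratios of other gene pairs were not measured, so no pattern across the loci is read from these values.

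**Figure D3:**
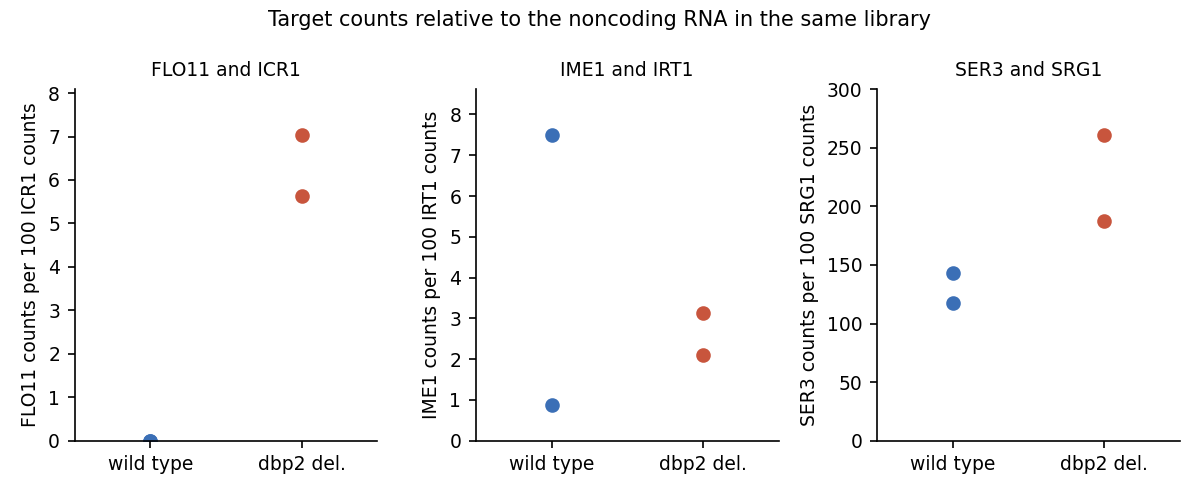
Counts of each target per 100 counts of its noncoding RNA in the same library, with 1 point per library and axes from 0. For FLO11 with ICR1 and for SER3 with SRG1 both deletion points lie above both wild-type points, whereas the deletion points for IME1 with IRT1 (3.12 and 2.10) lie between the wild-type points (7.50 and 0.885).

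The nearest features beside the loci were measured in the same way. FIP1, a subunit of the polyadenylation factor that follows IME1 on the same strand, gave 49 and 24 counts in the wild-type libraries against 490 and 285, a log2 fold change of 1.53 (SE 0.41, adjusted p = 0.0157), which was 2.28 without wild type 1 and 1.05 without wild type 2 (adjusted p = 0.0502). FIP1 and IRT1 were both called higher, and IME1 between them did not pass. RPL43B, a ribosomal protein gene on the other side of IRT1 and the opposite strand, had a log2 fold change of -0.46 (adjusted p = 0.0529). At FLO11, the mitochondrial splicing gene MRS1 beyond ICR1 stood at 11.1 and 11.4 CPM in wild type against 7.66 and 10.9 CPM (-0.28, adjusted p = 0.464), and YIR018C-A had 5 counts in wild type in all (1.18, adjusted p = 0.272). At SER3, AIM9 upstream (-0.52, adjusted p = 0.0645) and the ribosome assembly gene UTP7 downstream (0.33, adjusted p = 0.301) did not pass. Of the 6 neighbours outside the loci, 1 was called, where 41.9% of all features tested were called in either direction.

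**Figure D4:**
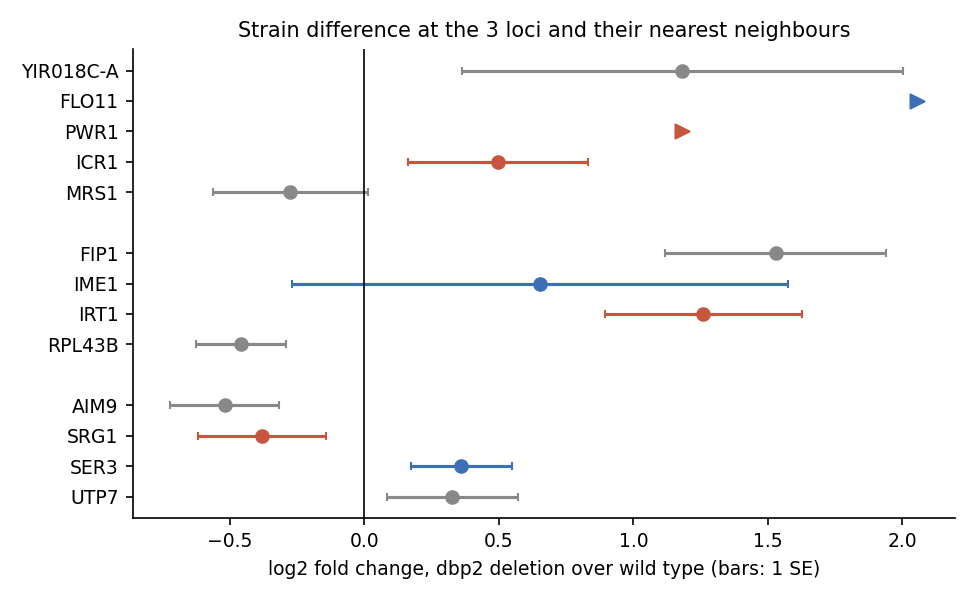
Log2 fold change, deletion strain over wild type, of the noncoding RNAs (red), the targets (blue) and the nearest neighbours (grey). Bars are 1 SE. Triangles are lower bounds for FLO11 and PWR1, which had no wild-type counts, with deletion counts taken as exact. IRT1 (1.26) and FIP1 (1.53) are the called features with an estimate, and IME1 between them has the widest bar of the targets.

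Among the tested features, those closest to each member in pattern over the 4 libraries (distance between centred log2 CPM values) were found without regard to function. The pattern of FLO11, with 0 counts in wild type, is partly set by the prior count of 2 added before the log. Closest to it were YAR030C (distance 0.227), the glucose-sensing regulator MTH1 (0.240; 1.53, 1.37, 11.5 and 18.1 CPM) and DCS2 (0.252), all higher in deletion 3 than in deletion 2. Closest to IRT1 were SRL1 (0.0886; 13.3, 10.6, 37.5 and 18.5 CPM), CPP1 (0.158) and the disaggregase gene HSP104 (0.182; 135, 119.9, 373 and 188 CPM), which shared its excess in deletion 2 over deletion 3. Closest to SER3 were BRF1 (0.0153), TAF3 (0.0335) and DET1 (0.0374), and closest to ICR1 were the histone deacetylase gene HOS1 (0.125), IRS4 (0.145) and LCL2 (0.155). IME1 had no close match: tL(CAA)G2, a transfer RNA row, was nearest at 0.710, followed by YDR157W (0.835) and TIM18 (0.890).

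Of 18 regulators of FLO11, 7 rose, 1 fell and 10 did not pass. The called share was near the 41.9% of all features called in either direction, of which 21.2% were higher and 20.7% lower. The median log2 fold change of the 18 regulators was 0.50 against 0.01 over all features tested. The repressor NRG1 rose 7.13-fold (54 and 25 counts in wild type, 1302 and 769 without DBP2; log2 fold change 2.83, SE 0.40, and 3.64 without wild type 1). SOK2, a repressor of filamentous growth, rose 4.11-fold (log2 fold change 2.04, and 1.44 without deletion 2). The amino acid regulator GCN4, also an activator of FLO11, rose 2.67-fold (log2 fold change 1.41, and 2.04 without wild type 1), and RIM101, a repressor of NRG1, rose 1.69-fold, although the call of RIM101 was lost in 2 of 4 leave-outs. The histone deacetylase HDA1 fell 1.62-fold, and this call was also lost in 2. FLO8, the main activator, which carries a stop codon in laboratory strains of the S288C lineage, stood at 29.5 and 26.1 CPM in wild type against 49.5 and 43.0 CPM (1.66-fold, adjusted p = 0.0190), and the activator STE12 rose 1.92-fold (adjusted p = 0.0298). These were named after their values were seen, and both calls were lost in 2 leave-outs. The activators TEC1 (log2 fold change 0.22) and MSS11 (0.38) did not pass. Without deletion 2 the calls were 3 higher and 1 lower, and without wild type 2 they were 4 and 1.

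Of the signalling genes upstream of FLO11, most did not pass. Among 19 of the pseudohyphal pathways, 14 did not pass, 4 rose and 1 fell (median 0.36), a smaller called share than the 41.9% of all features. DIG1, an inhibitor of Ste12, rose 4.28-fold (22.3 and 17.1 against 101 and 68.0 CPM), and the ammonium permease and sensor MEP2 rose 2.51-fold. The filamentation kinase KSS1 rose 1.88-fold and the mating kinase FUS3 1.75-fold (adjusted p up to 0.0714 with 1 library left out). The glucose receptor GPR1 fell 1.49-fold, a call lost in 3 of 4 leave-outs. Library totals alone gave 10 calls in this list, 9 calls were made without wild type 1, and 3 without deletion 2. Of the 4 other flocculin genes, 3 rose and none fell (median 1.91), where 21.2% of all features were called higher. FLO5 went from 2.72 and 2.56 to 12.9 and 9.80 CPM (4.30-fold). FLO10 rose 4.06-fold from 8 and 11 wild-type counts, and FLO1 3.49-fold from 9 and 18. FLO9 did not pass (edgeR adjusted p = 0.0725). Where 10 counts were required in every library, only 1 of the 4 was tested. FLO1, FLO5 and FLO9 are close copies whose reads may be shared.

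Of 16 regulators of IME1 15 were tested, 7 rose and none fell (median 0.60), where 21.2% of all features were called higher and 20.7% lower. With RLE size factors 6 rose and 1 fell. MSN4, a stress activator that also acts on the IME1 promoter, rose 13.2-fold, from 4.36 and 1.83 to 47.7 and 32.6 CPM (log2 fold change 3.72, SE 0.39, adjusted p = 1.94e-04; 4.45 without wild type 1). RIM8, of the Rim101 pathway, rose 5.72-fold, and the kinase RIM15 had a log2 fold change of 1.14 (adjusted p = 0.00464). SOK2 and RIM101, named above, are also in this list and among the 7, and the call of RIM101 was lost in 2 leave-outs. RIM11 rose as well (edgeR adjusted p = 0.0487, named after its value was seen), but lost its call in all 4 leave-outs. The antisense-regulated IME4 had 14 counts in all and was not tested. Library totals alone gave 11 calls in this list. Genes that act with or after Ime1 were also higher in part: of 11 tested of 16, 5 rose and none fell (median 1.25), beside the same 21.2% and 20.7%. SPO22, for chromosome synapsis, rose 10.5-fold (2.18 and 1.56 against 21.3 and 17.6 CPM), REC8, the meiotic cohesin, 6.87-fold, the later activator NDT80 5.21-fold, and the kinase IME2 2.95-fold (4.25 and 4.49 against 12.1 and 13.7 CPM). The early recombination gene SPO11 had a log2 fold change of -0.41 (adjusted p = 0.547), and SPO13, HOP1, MER1, MEK1 and REC114 were too low to be tested. Without wild type 1 there were 8 calls in this list.

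Among 12 serine and glycine genes around SER3, 2 did not pass, 6 rose and 4 fell (median 0.79), where 21.2% of all features were called higher and 20.7% lower. SER1, the aminotransferase that follows Ser3, fell 3.27-fold, from 614 and 699 to 183 and 219 CPM (log2 fold change -1.71, SE 0.19, adjusted p = 2.69e-04). SER33, the second phosphoglycerate dehydrogenase, went from 157 and 186 to 73.5 and 84.8 CPM and SER2, the phosphatase of the last step, from 124 and 138 to 67.1 and 57.2. SER33 fell 2.16-fold and SER2 2.10-fold, and both were named after their values were seen. These 3 kept their calls in all 4 leave-outs, and the difference between them and SER3 was not tested. The fourth that fell, the hydroxymethyltransferase SHM1 (adjusted p = 0.0434; also named after its value was seen), lost its call in all 4. The 6 that rose were the glycine cleavage subunits GCV1 (3.52-fold), GCV2 (3.45-fold) and GCV3 (2.61-fold), the glyoxylate aminotransferase AGX1 (log2 fold change 1.59), the threonine aldolase GLY1 (log2 fold change 1.05) and the hydroxymethyltransferase SHM2 (edgeR adjusted p = 0.0101). AGX1, GLY1 and SHM2 were named after their values were seen, and GLY1 and SHM2 lost their calls without wild type 2 (adjusted p = 0.0505 and 0.0501). CHA4, the activator of SRG1, averaged 12.5 CPM in wild type against 18.6 CPM (log2 fold change 0.58, adjusted p = 0.0823), and its other target CHA1, serine deaminase, did not pass (-0.32, adjusted p = 0.277).

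Which genes of the chromatin lists were called, higher or lower, depended on the scaling. The called genes named below kept their sign with library totals alone (log2 fold change of SPT6 -0.64, SET2 -0.64 and SNT1 1.715). Of 16 histone chaperones and elongation factors tied to transcription, 7 fell, none rose and 9 did not pass (median -0.51). The called share was near the 41.9% of all features called in either direction, of which 20.7% were lower and 21.2% higher. SPT6, known to be needed for repression of SER3 by SRG1, fell from 283 and 394 to 150 and 169 CPM (2.12-fold, log2 fold change -1.08, SE 0.22, adjusted p = 0.00406). POB3, of the FACT complex, fell 2.19-fold and SPT5 2.07-fold, and SPN1, a partner of Spt6, fell 1.78-fold, with an adjusted p of 0.0813 without wild type 2. SPT16, the other FACT subunit of the list, had a log2 fold change of -0.48 (adjusted p = 0.0747). The list had 3 calls without wild type 2 and 4 without deletion 2, and with library totals alone it had 3 lower and 3 higher. In the Set2 and Rpd3S list SET2 alone was called of 6, falling 2.12-fold (52.8 and 83.3 against 28.5 and 35.7 CPM; adjusted p = 0.00859, and 0.0646 without wild type 2). Of 8 genes of the Set3 list 6 did not pass, SNT1 rose 2.40-fold and SIF2 fell 1.59-fold, the latter losing its call in 2 leave-outs. SET3 itself did not pass (0.34, adjusted p = 0.273). With library totals alone the Set2 and Rpd3S list had 2 higher and 0 lower and the Set3 list 4 higher and 0 lower.

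Of 12 other genes known for overlapping noncoding transcription 11 were tested, 6 fell, 1 rose and 4 did not pass (median -1.31), against 20.7% of all features called lower. With library totals alone 6 were lower and 4 higher (median -0.87). The mating-type endonuclease HO fell 50.8-fold, the phosphate transporter PHO84 21.5-fold (log2 fold change -4.43, and -5.14 without deletion 3), the alcohol dehydrogenases ADH1 4.59-fold and ADH3 3.50-fold. KCS1, an inositol phosphate kinase, was called higher (log2 fold change 0.58, edgeR adjusted p = 0.0384), a call that none of the 4 leave-outs kept. Noncoding transcripts of HO, PHO84, ADH1, ADH3 and KCS1 were not analysed here. A link between these calls and such transcription was not tested.

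**Figure D5:**
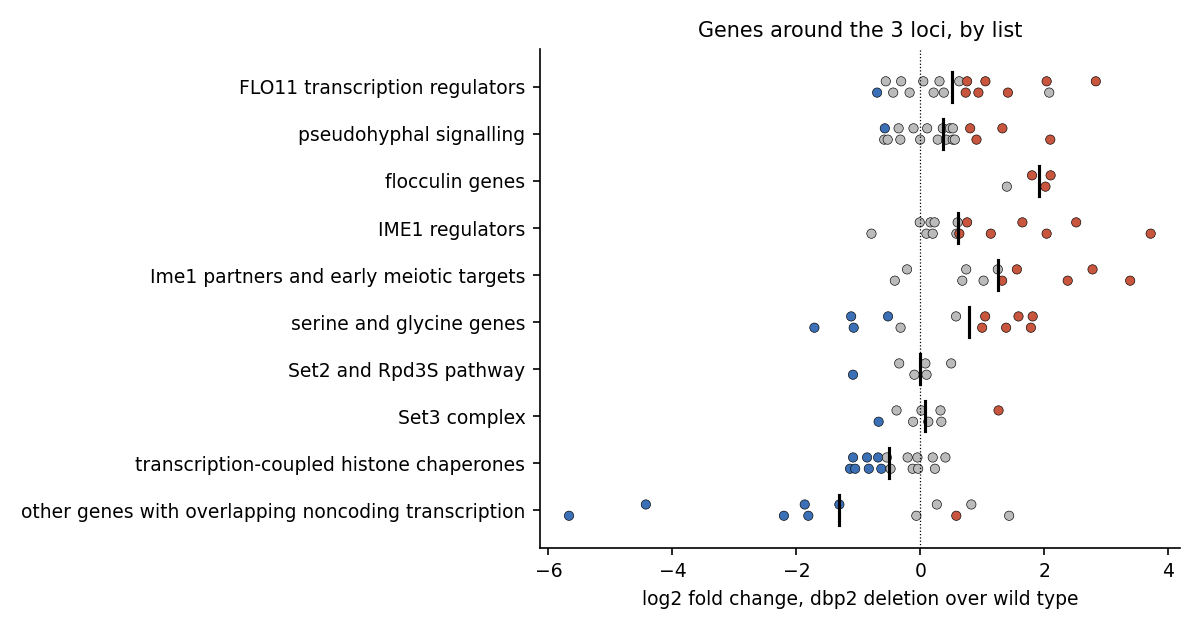
Log2 fold change, deletion strain over wild type, of every tested gene in each list around the 3 loci; red and blue points passed at an adjusted p below 0.05 as higher and lower, grey points did not, and the black bar is the median of the list. The histone chaperone list has 7 called genes, all lower, and the IME1 regulator list has 7, all higher.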

How the data were processed

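The authors deposited whole-number sense-strand read counts per feature, not normalized, judging from the values. R64 (sacCer3) is the build named in the submitters' processing notes. For the aligner, the counting program and multiply placed reads, no statement was found in the labels or headers. A second table deposited by the authors holds edgeR log2 fold changes, log2 mean CPM and p-values, per its header.

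Counts were tested with edgeR 4.0.16 (R 4.3.3): filterByExpr (minimum count 10, minimum total 15), TMM factors, quasi-likelihood test, Benjamini-Hochberg adjustment over 6124 features, calls at an adjusted p below 0.05. The step was run on simulated counts in which most features were unchanged. That simulation does not cover a called share as large as the one seen here, or rows with no wild-type counts. The SE is the log2 fold change divided by the square root of F, and 95% intervals use the fit's degrees of freedom. Alternatives were RLE, upper-quartile and total-count scaling, other filters, DESeq2 1.42.0, other edgeR tests, abundance-dependent offsets (limma 3.58.1) and leaving out each library. Of 7134 rows, 6053 matched the RefSeq R64 annotation by systematic name, 123 by symbol and 3 by synonym. IRT2 was not analysed here. Members, lists and tests were chosen with earlier results of these data known. Named genes are the members, the noncoding RNAs of the loci, neighbours, up to 4 called genes per list by p-value plus small minorities, and the 3 nearest patterns per member; others are said to be named after their values were seen, except single uncalled pathway genes.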

Additional observations from a re-analysis of the deposited data

How the results depend on the processing

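Over 13 alternative settings, the number of features called stayed within 1.5 times of 2569, from 1724 without deletion 2 to 3085 with library totals alone, and the called members of all lists together did as well. Library totals moved the share of higher calls most (2502 higher, 583 lower). The log2 fold change of ICR1 passed only there (0.95, adjusted p = 0.0328) and SER3 likewise (0.81, adjusted p = 0.00675). With 1 library left out, ICR1 ran from 0.17 to 0.98, SER3 from 0.29 to 0.47, IRT1 from 0.58 to 1.72, IME1 from -0.48 to 3.06 and FLO11, where tested, from 6.75 to 7.13, a fitted value that depends on the prior count. IRT1 was 0.95 with abundance-dependent offsets and no longer passed; the cause was not tested. The difference in the log2 ratio of FLO11 to ICR1 was 2.19 with 1 added to each count. FLO11 and IME1 gave no value where 10 counts were required in every library. No paired analysis was possible because the labels number the libraries of both strains 1 and 2 whereas the deletion columns carry the numbers 2 and 3. Depth limits FLO11, PWR1 and IME1 most: 3 counts correspond to 0.327 and 0.275 CPM in the wild-type libraries against 0.0736 and 0.0996 CPM.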

Other observations

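Other annotated regulatory RNAs gave few counts. Of 16 rows classed as noncoding or antisense RNA in the annotation, a set formed after the values were seen, 8 were tested. The 16 include ICR1, IRT1, SRG1 and PWR1, described above. IRT1 and RME2 were called higher, and RUF20 and RNA170 lower. Among all features tested, 21.2% were called higher and 20.7% lower. RME2, the antisense RNA of the RNA methyltransferase gene IME4 (chromosome VII, 141898 to 144120), gave 81 and 32 counts in the wild-type libraries against 990 and 482, or 8.83 and 2.93 against 24.3 and 16.0 CPM, a log2 fold change of 1.80 (SE 0.45, adjusted p = 0.0121; 2.78 without wild type 1). IME4 itself was listed at 0 and 0 counts in the wild-type libraries against 6 and 8. RME3, the antisense RNA of the meiotic gene ZIP2, had a log2 fold change of 0.77 and ZIP2 0.82, and neither passed (adjusted p = 0.133 and 0.132).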
